A study of Bos taurus with 48 samples.

Results

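The genes described here are the type I interferon receptor subunits IFNAR1 and IFNAR2, the kinases JAK1, JAK2 and TYK2, the transcription factors STAT2 and STAT3, and the feedback inhibitors SOCS1 and SOCS3. They were chosen by symbol and are 9 of the 14334 genes with a symbol on the array. The symbols matched 10 probes, each printed in 2 spots: 1 for each gene except STAT3, which had 2. Endometrium was taken at slaughter on day 17 of the reproductive cycle from 22 lactating Holstein-Friesian cows of mixed New Zealand and North American ancestry whose oestrus had been synchronised. On day 7, 12 of the cows received a grade 1 blastocyst, and they are the pregnant group. The 10 cyclic cows received none. From each cow both caruncular endometrium, the raised sites where the placenta later attaches, and the intercaruncular endometrium between them, which holds the glands, were sampled. Titles and labels divide the pregnant cows by embryo, with 7 large (over 20 cm and over 75 mg) and 5 small (under 20 cm and under 40 mg), and by the words fertile (6 cows) and sub-fertile (6 cows). Of these, 3 cows were large and fertile, 4 large and sub-fertile, 3 small and fertile and 2 small and sub-fertile. The cyclic cows carry neither label.

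Before implantation the ruminant conceptus secretes interferon tau, a type I interferon that is the signal for maternal recognition of pregnancy. It binds IFNAR1 and IFNAR2 on endometrial cells, and the kinases TYK2 and JAK1 bound to these subunits then phosphorylate STAT proteins. STAT2 enters the nucleus with another STAT and IRF9 as the complex ISGF3, which activates interferon-stimulated genes. JAK2 and STAT3 serve many other cytokine receptors, among them those of the interleukin 6 family. SOCS1 and SOCS3 are induced by such signals and inhibit the JAK kinases and receptors in return. Most of these steps run by phosphorylation, which an RNA array does not measure.

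The probe of STAT2 is shown here, since it was well above background in pregnant cows alone and each value of the gene rests on this 1 oligonucleotide of 60 bases. The sequence was taken from the study's probe list and is written whole from 5′ to 3′. No letters are marked.
STAT2 (A_73_102551): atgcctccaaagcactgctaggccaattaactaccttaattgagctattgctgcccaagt

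On 2-colour arrays the 44 samples, in Cy5, were set against a pool of them all in Cy3, without a dye swap, and 4 caruncular samples (1 of a pregnant cow, 3 of cyclic cows) were hybridised again. The values below are log2 ratios of sample to pool after subtraction of the median of the array, averaged over the arrays of a repeated sample, so 0 is the level of the pool and the cow is the replicate. They compare samples for 1 probe and do not rank genes by level. Of the 48 arrays, 68.8% to 84.0% of spots were well above background, and for the members tested the repeat array differed from the first by -0.20 to 0.09. Scan batch and tissue overlapped. Caruncular samples were scanned in batch 2 and intercaruncular samples in batch 1, apart from both samples of 1 cyclic cow and 1 pregnant cow and the repeat arrays, which were scanned in batch 3. Those cows stood apart for several members and are called the batch 3 cows. The batch 3 cyclic cow also had the lowest mean of 10 epithelial and gland markers among the cyclic cows of either tissue (-1.03 in caruncular, -0.65 in intercaruncular) and the highest mean of 8 stromal markers (1.45 and 0.99). In whole tissue, fewer cells of a type and less RNA per cell cannot be told apart. Slide and pregnancy overlapped too. Leaving the repeat arrays aside, 1 slide of each tissue held both states, with 3 pregnant cows and 1 cyclic cow. Within a tissue only the batch 3 cows differed in scan batch, so a block for scan batch does not separate slide from pregnancy. A fixed block for slide compares the states on the shared slide alone.

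In the pregnant cows SOCS1 was higher in both tissues, JAK2 was higher in caruncular tissue, and IFNAR2 was lower in intercaruncular tissue. IFNAR1, JAK1, TYK2 (by the probe that carries its symbol) and STAT3 passed the test in neither tissue. The STAT2 probe was too dim to be tested but was above background in pregnant cows alone, and SOCS3 was too dim as well. A probe was called at a Benjamini-Hochberg adjusted p under 0.05 in limma, adjusted over all 14717 probes tested. Of the 7 members tested, 2 were called in caruncular tissue, where 26.9% of all probes were called, and 2 in intercaruncular tissue, where 20.3% were. At the methods' threshold, which also asks for a change of 1.5-fold, SOCS1 alone was called in each tissue, against 1473 and 1071 of the 14717 probes. The median log2 difference of the 7 was -0.01 in caruncular tissue (-0.04 over all probes) and -0.14 in intercaruncular tissue (-0.01 over all probes).

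**Figure D1:**
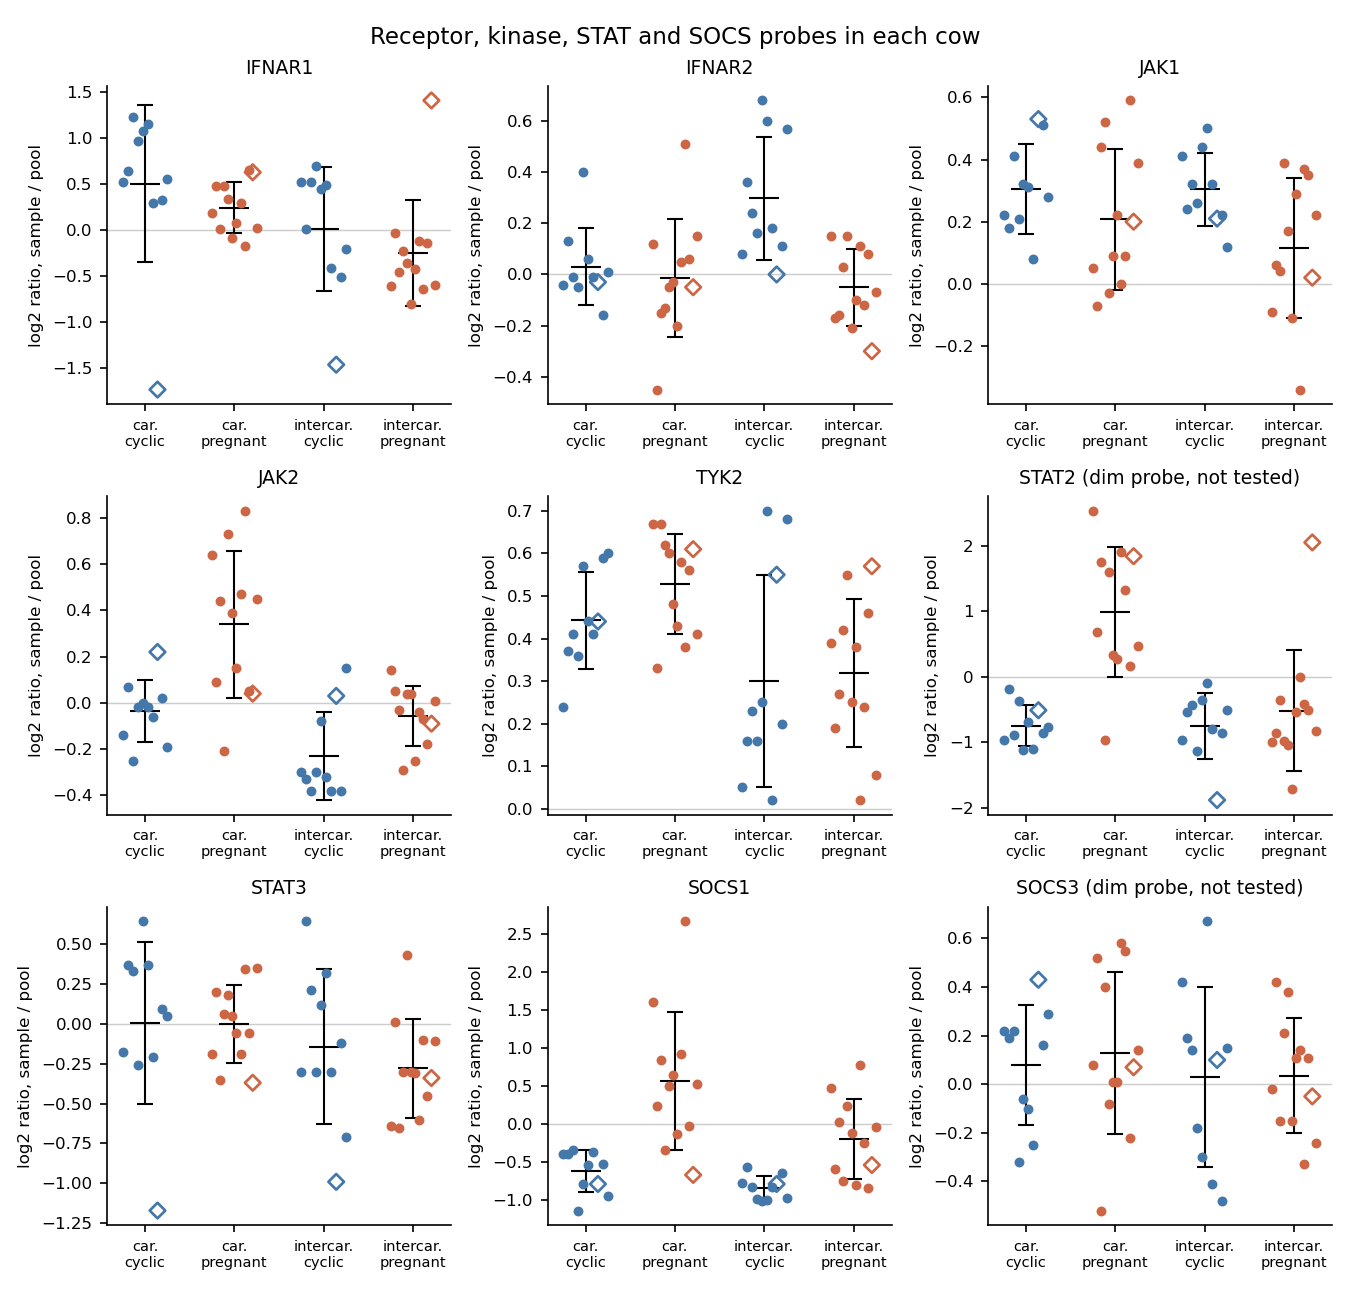
Log2 ratio of sample to pool (vertical axes) for the representing probe of each gene in every cow, with blue points for the 10 cyclic and red points for the 12 pregnant cows of each tissue, bars for the mean ± SD, and open diamonds for the samples of the batch 3 cows. SOCS1 lies above the cyclic cows in most pregnant cows of both tissues, and STAT2 does so in 11 of 12 pregnant cows in caruncular tissue.

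IFNAR2, the subunit with the higher affinity for the ligand, ranged in intercaruncular tissue from 0.00 to 0.68 with a median of 0.21 in cyclic cows, and from -0.30 to 0.15 with a median of -0.09 in pregnant cows. The ranges overlapped, but 7 of 12 pregnant cows lay below every cyclic cow and 12 of 12 below the cyclic mean. Its mean was -0.05 ± 0.15 (SD, n = 12) against 0.30 ± 0.24 (SD, n = 10), a log2 difference of -0.35 (SE 0.09) that passed the test (limma, adjusted p = 0.00744) and is 1.27-fold in size. The call held with each of the 22 cows left out (adjusted p at most 0.0159) and with the scan batch as a block (-0.35, adjusted p = 0.00312). It also held with slide fitted as a random block, but slide and pregnancy overlapped. In caruncular tissue IFNAR2 was -0.16 to 0.40 in cyclic cows (median -0.01) and -0.45 to 0.51 in pregnant cows (median -0.04). These groups overlapped almost wholly, with a difference of -0.04 (SE 0.09, limma, adjusted p = 0.742) and a 95% confidence interval of -0.22 to 0.14.

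IFNAR1, the other subunit, ranged in caruncular tissue from -1.73 to 1.23 with a median of 0.60 in cyclic cows and from -0.17 to 0.66 with a median of 0.24 in pregnant cows. The lowest cyclic value was that of the batch 3 cyclic cow, and the next was 0.30. The difference was -0.26 (SE 0.25, limma, adjusted p = 0.456), and without that cow it was -0.51 (adjusted p = 0.00744), the only one of the 22 fits with a cow left out in which IFNAR1 was called. In intercaruncular tissue the range was -1.46 to 0.70 in cyclic cows (median 0.23) and -0.80 to 1.41 in pregnant cows (median -0.38). The lowest cyclic and the highest pregnant value were those of the batch 3 cows, and the next highest pregnant value was -0.03. The intercaruncular difference was also -0.26 (SE 0.25, limma, adjusted p = 0.499), and 11 of 12 pregnant cows lay below the cyclic mean.

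JAK2, a kinase of many cytokine and growth hormone family receptors, ranged in caruncular tissue from -0.25 to 0.22 with a median of -0.02 in cyclic cows and from -0.21 to 0.83 with a median of 0.41 in pregnant cows. Of the pregnant cows, 7 lay above every cyclic cow and 11 above the cyclic mean. The means were 0.34 ± 0.32 (SD, n = 12) and -0.04 ± 0.14 (SD, n = 10), a difference of 0.38 (SE 0.11, limma, adjusted p = 0.0124) or 1.3-fold, with a 95% confidence interval of 0.15 to 0.60. It passed the test in each of the 22 fits with a cow left out and with the scan batch as a block (0.37, adjusted p = 0.0137), but with slide fitted as a random block it was 0.33 with an adjusted p of 0.0782 (15.5% of all probes called). In intercaruncular tissue JAK2 was -0.38 to 0.15 in cyclic cows (median -0.31) and -0.29 to 0.14 in pregnant cows (median -0.04). Here 10 of 12 pregnant cows lay above the cyclic mean but none above every cyclic cow, and the difference of 0.17 (SE 0.07) did not pass (limma, adjusted p = 0.107). It passed without the batch 3 cyclic cow (0.20, adjusted p = 0.048) and without 1 other cyclic cow (0.21, adjusted p = 0.0306).

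JAK1, which pairs with IFNAR2, was 0.30 ± 0.14 (SD, n = 10) in cyclic and 0.21 ± 0.23 (SD, n = 12) in pregnant cows in caruncular tissue. The intercaruncular means were 0.30 ± 0.12 and 0.11 ± 0.23. The differences were -0.10 (SE 0.08, limma, adjusted p = 0.411) and -0.19 (SE 0.08, adjusted p = 0.109). In intercaruncular tissue 6 of 12 pregnant cows lay below every cyclic cow.

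TYK2, which pairs with IFNAR1, gave values that depended on the probe. The probe that carries the symbol (A_73_111821) was 0.44 ± 0.12 (SD, n = 10) in cyclic and 0.53 ± 0.12 (SD, n = 12) in pregnant cows in caruncular tissue, a difference of 0.09 (SE 0.06, limma, adjusted p = 0.269). In intercaruncular tissue its difference was 0.02 (SE 0.09, adjusted p = 0.911). A further probe (A_73_107438) lists the same accession and gene number without the symbol, so the choice by symbol did not reach it, and it was noticed after the values of both had been seen. In caruncular tissue it ranged from 0.18 to 0.61 with a median of 0.32 in cyclic cows and from -0.21 to 0.19 with a median of -0.12 in pregnant cows. There 11 of 12 pregnant cows lay below every cyclic cow, and the difference was -0.38 (SE 0.07, limma, adjusted p = 0.000219). In intercaruncular tissue it was -0.30 (SE 0.07, adjusted p = 0.00331), with 8 of 12 pregnant cows below every cyclic cow. Both probes were well above background on every array. The further probe was the brighter, with a mean log2 sample signal of 13.25 against 8.37. Which of them follows the TYK2 transcript was not tested.

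STAT2, the STAT particular to interferon signalling, was well above background on 7 of 13 arrays of pregnant cows in caruncular tissue (6 of 12 cows) and on 0 of 13 arrays of cyclic cows. In intercaruncular tissue it was so on 2 of 12 arrays of pregnant cows and on 0 of 10 arrays of cyclic cows. The caruncular log2 ratios were -1.11 to -0.19 with a median of -0.81 in cyclic cows and -0.97 to 2.53 with a median of 1.00 in pregnant cows. Among the pregnant cows 11 of 12 lay above every cyclic cow, and the exception carried a small embryo and was labelled sub-fertile. Since no cyclic array measured the probe above background, the caruncular difference has only an approximate bound, of about 2.06-fold or more toward the pregnant group. The bound sets the mean of all 12 pregnant cows against, per cyclic array, the higher of the probe's own signal and the dimmest signal among probes well above background. It is not strict, since pregnant cows in which the probe was not above background enter with their measured signal. It compares channel signals between arrays, so it is open to dye bias, and it was 1.92 to 2.34 with any 1 cow left out. The intercaruncular log2 ratios were -1.88 to -0.10 in cyclic cows (median -0.66) and -1.71 to 2.05 in pregnant cows (median -0.68). Only the batch 3 pregnant cow stood well above the others there, with the next at 0.00, and no bound over 1 could be given. When the filter on dim probes was lifted, the fitted difference was 1.74 in caruncular tissue (limma, adjusted p = 0.000659), against 0.24 (adjusted p = 0.67) in intercaruncular tissue. These fitted sizes rest on signals below background, and the repeat arrays differed from the first by as much as -1.13 for this probe.

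STAT3, the main transducer of the interleukin 6 family, was represented by its brighter probe (A_73_104691). In caruncular tissue this was -1.17 to 0.64 with a median of 0.07 in cyclic cows, the lowest in the batch 3 cyclic cow, and -0.37 to 0.35 in pregnant cows. The groups had the same mean to 2 decimals, with a difference of -0.01 (SE 0.16, limma, adjusted p = 0.981) and a 95% confidence interval of -0.34 to 0.32. In intercaruncular tissue the difference was -0.14 (SE 0.16, adjusted p = 0.593). The other probe of STAT3 (A_73_115616) gave 0.35 (SE 0.19, adjusted p = 0.182) in caruncular and 0.16 (SE 0.16, adjusted p = 0.511) in intercaruncular tissue. Neither probe was called in either tissue, and in caruncular tissue 6 of 12 pregnant cows lay above the cyclic mean by the first and 11 of 12 by the second.

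SOCS1, the inhibitor that binds JAK kinases directly, had the largest pregnancy difference of the 7 members tested. In caruncular tissue it ranged from -1.14 to -0.34 with a median of -0.53 in cyclic cows and from -0.67 to 2.67 with a median of 0.51 in pregnant cows. All cyclic cows lay below the pool, and 10 of 12 pregnant cows lay above every cyclic cow. The means were 0.57 ± 0.90 (SD, n = 12) and -0.62 ± 0.28 (SD, n = 10), a difference of 1.19 (SE 0.28, limma, adjusted p = 0.00373) or 2.28-fold, with a 95% confidence interval of 0.60 to 1.78. The pregnant cows spread from the batch 3 cow, at -0.67 and below the cyclic mean, to a fertile cow with a small embryo, at 2.67. In intercaruncular tissue SOCS1 was -1.01 to -0.57 in cyclic cows (median -0.83) and -0.84 to 0.78 in pregnant cows (median -0.19). There 8 of 12 pregnant cows lay above every cyclic cow and 12 of 12 above the cyclic mean, and the difference was 0.64 (SE 0.17, limma, adjusted p = 0.00897) or 1.56-fold. Both calls held in all fits with a cow left out (adjusted p at most 0.00764 in caruncular and 0.0173 in intercaruncular tissue) and with the scan batch as a block (1.18, adjusted p = 0.0031, and 0.64, adjusted p = 0.00891). With slide fitted as a random block the intercaruncular difference was 0.60 with an adjusted p of 0.0575 (6.97% of all probes called).

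SOCS3, a feedback inhibitor of interleukin 6 family receptors, was well above background on 9 of 13 and 11 of 13 caruncular arrays of cyclic and pregnant cows, and on 4 of 10 and 7 of 12 intercaruncular arrays. It did not reach the signal minimum, which was applied to the background-subtracted signal. The methods state that minimum in raw units, and SOCS3 passed the alternative filter on raw signal. Its caruncular log2 ratios were -0.32 to 0.43 with a median of 0.17 in cyclic cows and -0.52 to 0.58 with a median of 0.08 in pregnant cows. Its intercaruncular log2 ratios were -0.48 to 0.67 (median 0.12) and -0.33 to 0.42 (median 0.04). The groups overlapped in both tissues, and without the filter the fitted differences were 0.05 and 0.01 (limma, adjusted p = 0.822 and 0.988).

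**Figure D2:**
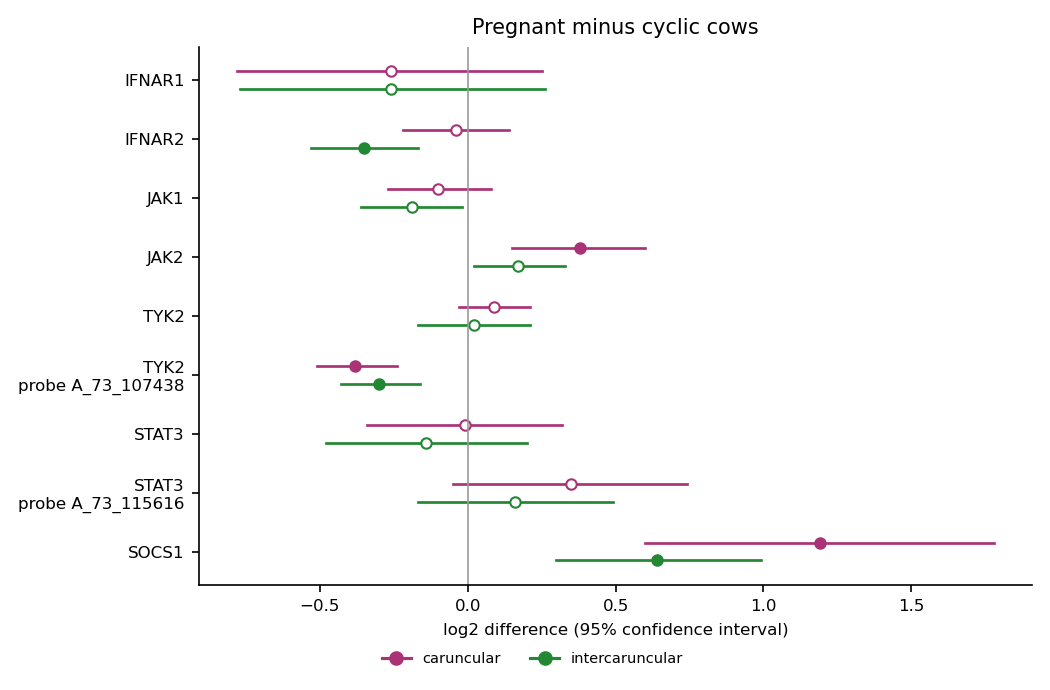
Log2 difference of pregnant minus cyclic cows (horizontal axis) with its 95% confidence interval for the probes tested, in caruncular (purple) and intercaruncular tissue (green); filled points passed the test at a Benjamini-Hochberg adjusted p under 0.05. SOCS1 has the largest differences, 1.19 and 0.64, and the probes of TYK2 differ from each other, at 0.09 and -0.38 in caruncular tissue.

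Markers of other cell types were counted in the same pregnancy comparisons, in which 11.4% of all probes rose and 15.4% fell in caruncular tissue and 9.25% rose and 11.1% fell in intercaruncular tissue. Of 15 leukocyte markers tested, 6 rose and 0 fell in caruncular tissue, while intercaruncular tissue had 4 that rose and 1 that fell. The mean of the list was -0.57 to 0.15 in cyclic and -0.16 to 0.72 in pregnant caruncular samples, and -0.38 to 0.13 and -0.57 to 0.48 in intercaruncular samples. Of 6 smooth muscle markers, 5 fell in each tissue, with a mean of -0.32 to 1.07 in cyclic and -1.46 to 0.53 in pregnant caruncular samples and of -1.02 to 0.78 and -1.68 to 0.04 in intercaruncular samples. Of 10 epithelial markers, 2 rose and 2 fell in caruncular and 3 rose and 1 fell in intercaruncular tissue, and of 8 stromal markers 1 rose and 1 fell, and 1 rose and 4 fell. The 2 of 8 stromal markers called in caruncular tissue are a share near that of all probes (26.9%). The part of these cell types in the differences of SOCS1, JAK2 and IFNAR2 was not tested. Of the conceptus markers, interferon tau (IFNT2), PAG11 and PRP1 were well above background on 0 of 48 arrays. The other conceptus probes were so on 2 to 5 arrays, apart from ELF5 on 17 and a probe with the symbol PAG1, which the array describes as a phosphoprotein of membrane microdomains and not as the placental glycoprotein.

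No member had a pregnancy difference that differed between the tissues in the fit of all 44 samples, in which 0.0204% of all probes (3 of 14717) were called. At an unadjusted p under 0.05, 7.37% of all probes (1085) and 1 of the 7 members, IFNAR2, passed. For IFNAR2 the caruncular minus the intercaruncular difference was 0.31 (SE 0.12, limma, adjusted p = 0.527, 95% confidence interval 0.06 to 0.55). For SOCS1 it was 0.55 (SE 0.34, adjusted p = 0.812) with an interval of -0.13 to 1.22, and for JAK2 0.20 (SE 0.13, adjusted p = 0.833). The other members tested had -0.01 (IFNAR1), 0.09 (JAK1), 0.07 (TYK2) and 0.13 (STAT3), with adjusted p of 0.982 or more. Both tissues come from the same cow, and with the cow as a random block (2.89% of all probes called) the adjusted p of IFNAR2 was 0.0494 and that of SOCS1 was 0.219. With the cow as a fixed block (1.03% called) that of IFNAR2 was 0.0952. The caruncular difference of STAT2 could not be compared between tissues except without the filter, where the difference was 1.5 (limma, adjusted p = 0.305) and that of SOCS3 was 0.05 (adjusted p = 1).

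Other genes of the pathway were counted from lists, to be read against the 26.9% and 20.3% of all probes called in the tissues. Of 18 interferon ligand genes, 5 were on the array and 0 passed the filter on dim probes. Of 26 other receptors that use JAK kinases, 22 were on the array and 15 were tested. In caruncular tissue 3 of these rose and 1 fell, and in intercaruncular tissue 2 rose and 2 fell, so the 4 of 15 called in each were near the share of all probes. LIFR, the receptor of leukaemia inhibitory factor, rose in both tissues (0.77, adjusted p = 0.000165, and 0.87, adjusted p = 0.000183), and EPOR, the erythropoietin receptor, fell in both (-1.09, adjusted p = 0.00234, and -1.18, adjusted p = 0.000736). Both differences had 12 of 12 pregnant cows on 1 side of the cyclic mean in each tissue. OSMR, the oncostatin M receptor, rose in caruncular tissue (0.46, adjusted p = 0.0155), and CNTFR, the ciliary neurotrophic factor receptor, fell in intercaruncular tissue (-0.64, adjusted p = 0.00281).

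Of 11 other kinases, STATs and partners tested (of 12), 4 rose and 2 fell in caruncular and 3 rose and 1 fell in intercaruncular tissue. IRF9, the DNA-binding partner of STAT2 and listed on the array under its older name ISGF3G, rose by 2.49 (SE 0.15, 5.63-fold, limma, adjusted p = 5.58e-11) in caruncular and by 2.00 (SE 0.13, 4.01-fold, adjusted p = 1.59e-10) in intercaruncular tissue. NMI, a protein that binds STATs, rose by 1.65 and 1.21 (adjusted p = 2.02e-06 and 1.61e-05). JAK3, the kinase of lymphocyte cytokine receptors, fell by 0.56 and by 0.38 (adjusted p = 0.00854 and 0.00512). Of 16 other feedback regulators tested (of 19), 3 rose and 2 fell in caruncular and 2 rose and 1 fell in intercaruncular tissue. The 5 of 16 and 3 of 16 called were near the shares of all probes (26.9% and 20.3%). USP18, an inhibitor that acts at IFNAR2 and is listed on the array as bubp43, rose by 4.40 (SE 0.29, 21.1-fold, adjusted p = 1.18e-10) and by 3.62 (SE 0.22, 12.3-fold, adjusted p = 4.28e-11). PTPN11, a phosphatase, fell by 0.38 and by 0.26 (adjusted p = 0.000356 and 0.0164). PIAS1, an inhibitor of STAT activity, rose in caruncular tissue (0.27, adjusted p = 0.0035), and PTPN6, a phosphatase of blood cells, rose in intercaruncular tissue (0.22, adjusted p = 0.0483). The median difference of these 3 tested lists was -0.11, 0.17 and 0.09 in caruncular and -0.16, -0.01 and 0.03 in intercaruncular tissue.

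Between the tissues, 1 of the 7 members differed in cyclic cows and 5 in pregnant cows, where 33.5% and 48.4% of all probes were called. These fits leave the pairing by cow aside. With the cow as a fixed block the same 5 passed in pregnant cows (61.4% of all probes called), and IFNAR1, JAK2 and SOCS1 joined IFNAR2 in cyclic cows (54.0%). The 5 were higher in caruncular tissue, as were 23.0% of all probes in pregnant cows. The member median of the caruncular minus intercaruncular difference was 0.15 in cyclic and 0.28 in pregnant cows, against -0.02 over all probes in both. Tissue and scan batch cannot be told apart in these comparisons except within the batch 3 cows, and the values within those cows stand beside the results. In cyclic cows IFNAR2 was lower in caruncular tissue in 10 of 10 cows, with differences of -0.56 to -0.03 and a mean difference of -0.27 (SE 0.09, limma, adjusted p = 0.0302). The batch 3 cow was the one with the difference of -0.03. With the cow as a block, which takes up what the tissues of a cow share, IFNAR2 (adjusted p = 0.00285), IFNAR1 (0.50, adjusted p = 0.00267), JAK2 (0.19, adjusted p = 0.0374) and SOCS1 (0.22, adjusted p = 0.0216) were all called, against 54.0% of all probes. These last 3 were higher in caruncular tissue in 9 of 10 cows each. Without the block their adjusted p values were 0.246, 0.07 and 0.101. JAK1, TYK2 and STAT3 differed by 0.00, 0.14 and 0.15 (limma, adjusted p at least 0.239), and without the filter the dim probes of STAT2 and SOCS3 differed by 0.01 and 0.05 (adjusted p = 0.989 and 0.841). The other probe of STAT3 gave 0.53 (SE 0.24, limma, adjusted p = 0.101) and was higher in caruncular tissue in 9 of 10 cows. With the cow as a block it passed (adjusted p = 0.0023). In the batch 3 cyclic cow its difference was -0.30.

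In pregnant cows the caruncular level was higher for IFNAR1 (0.49, SE 0.18, limma, adjusted p = 0.0243, 11 of 12 cows), JAK2 (0.40, SE 0.10, adjusted p = 0.00193, 12 of 12 cows), TYK2 (0.21, SE 0.06, adjusted p = 0.00936, 12 of 12 cows), STAT3 (0.28, SE 0.11, adjusted p = 0.0445, 10 of 12 cows) and SOCS1 (0.77, SE 0.29, adjusted p = 0.03, 11 of 12 cows). IFNAR2 and JAK1 differed by 0.04 and 0.09 and were not called. Without the filter STAT2 differed by 1.51 (limma, adjusted p = 0.0027), a size that rests in part on signals below background, and SOCS3 by 0.09 (adjusted p = 0.565). The call of STAT3 was lost without the filter on dim probes (adjusted p = 0.0545) and by the methods' t-test (adjusted p = 0.0514), while its other probe gave a larger difference of 0.71 (SE 0.10, adjusted p = 6.65e-06). Those fits do not use the pairing by cow. With the cow as a fixed block STAT3 passed in limma with the filter (adjusted p = 0.00206) and without it (adjusted p = 0.00252). For TYK2 the further probe gave -0.06 (adjusted p = 0.505). In the batch 3 pregnant cow, whose tissues were scanned together, the caruncular minus intercaruncular difference was -0.78 for IFNAR1, 0.13 for JAK2, 0.04 for TYK2, -0.03 for STAT3 and -0.13 for SOCS1. That cow was the exception of the 12 for IFNAR1 and SOCS1, and without it the differences were 0.61 (adjusted p = 6.78e-05) and 0.85 (adjusted p = 0.0175). In the batch 3 cyclic cow the same differences were -0.27, 0.19, -0.12, -0.18 and 0.00. With slide fitted as a random block JAK2 was the 1 of the 7 representing probes that passed in pregnant cows (0.37, adjusted p = 0.0168, 35.0% of all probes called), and the other probe of STAT3 passed too (0.66, adjusted p = 0.000413). In cyclic cows 0 passed (10.5% called). Stromal markers were higher in caruncular tissue for 7 of 8 genes in pregnant cows (23.0% of all probes) and 3 of 8 in cyclic cows (16.3%). Epithelial markers were lower for 7 of 10 in pregnant cows (25.4% of all probes) and 3 of 10 in cyclic cows (17.2%), and 1 of 10 was higher in pregnant cows. Of 6 smooth muscle markers, 3 were higher in pregnant and 1 in cyclic cows. The mean of the 8 stromal markers was -0.12 to 1.18 in pregnant caruncular and -0.48 to 0.23 in pregnant intercaruncular samples, and that of the 10 epithelial markers was -1.14 to 0.21 and -0.28 to 0.45. Their part in the tissue differences of the members was not tested.

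**Figure D3:**
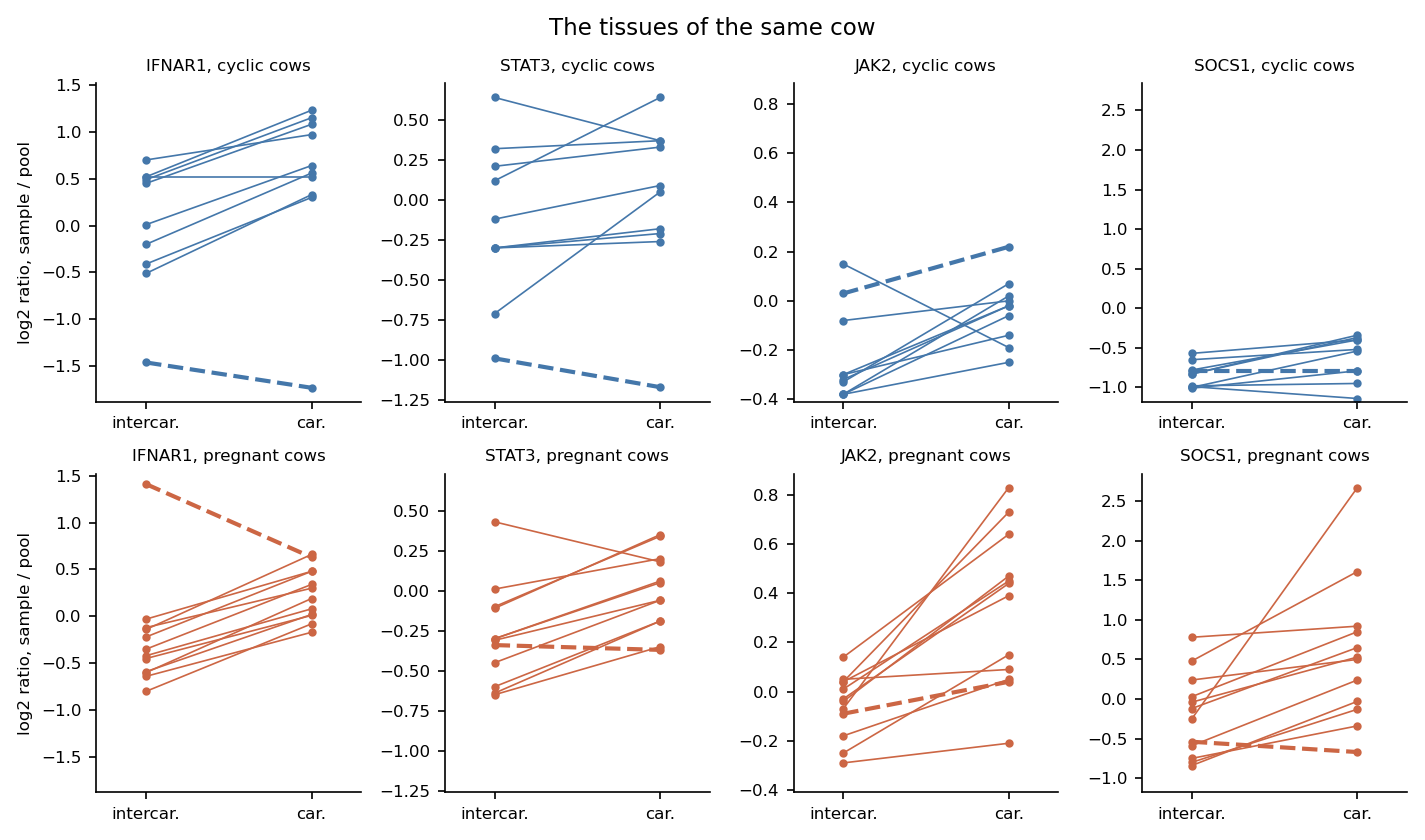
Log2 ratio of sample to pool (vertical axes) of IFNAR1, STAT3, JAK2 and SOCS1 in the intercaruncular and caruncular sample of each cow, joined by a line, for 10 cyclic cows (blue, top) and 12 pregnant cows (red, bottom); dashed lines are the batch 3 cows, whose tissues were scanned together. JAK2 rises toward caruncular tissue in 12 of 12 pregnant cows, and the dashed lines fall for IFNAR1 in both states.

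The levels in the tissues of a cow went together for some members. Over the 22 cows, with values centred within pregnant and cyclic cows, the caruncular and intercaruncular log2 ratios of IFNAR1 had a Pearson correlation of 0.79 and a Spearman correlation of 0.85 (permutation test, adjusted p = 7e-05 and 0.000105 over the 7 members). The Pearson value was 0.73 without the 2 cows farthest from the median and 0.85 without the batch 3 cows. For STAT3 the correlations were 0.78 and 0.83 (permutation test, adjusted p = 0.000175 and 0.000105), with 0.74 and 0.73 on leaving out the same kinds of cows. SOCS1 had 0.55 and 0.73, with an adjusted permutation p of 0.0511 for the first and 0.00257 for the second. IFNAR2, JAK2 and TYK2 had Pearson values of 0.41, 0.40 and 0.46 (adjusted permutation p = 0.0511 for each) and Spearman values of 0.53, 0.46 and 0.52, which passed (adjusted permutation p = 0.015, 0.0306 and 0.0241). JAK1 had 0.39 and 0.34 (adjusted permutation p = 0.118 and 0.159). Cows with a high IFNAR1 or STAT3 ratio in 1 tissue thus tended to have a high ratio in the other.

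Embryo size was compared within the 12 pregnant cows, and 0 of the 7 members were called in either tissue. In caruncular tissue 0% of all probes were called (0 of 14717 by limma, 1020 at an unadjusted p under 0.05 and 0 by the methods' t-test). SOCS1 in caruncular tissue was -0.34, -0.13, -0.03, 0.50 and 2.67 in the 5 cows with small embryos and -0.67 to 1.61 (median 0.65) in the 7 with large ones. The highest value belonged to a cow with a small embryo, and the difference of 0.06 (SE 0.50) had a 95% confidence interval of -1.02 to 1.14. The interval is wide enough to hold a change of 1.5-fold in either direction. In intercaruncular tissue 3.70% of all probes were called (545 by limma, 3169 at an unadjusted p under 0.05 and 190 by the methods' t-test). JAK1 was 0.17, 0.29, 0.35, 0.37 and 0.39 in the cows with small embryos and -0.34 to 0.22 (median 0.02) in those with large ones. Here 6 of 7 cows with large embryos lay below every cow with a small one. The difference was -0.34 (SE 0.10, limma, adjusted p = 0.0677). It passed the test with slide fitted as a random block (adjusted p = 0.0443), where 5.97% of all probes were called. It also passed with the scan batch as a block (-0.35, adjusted p = 0.0386), with the fertility label as a covariate (-0.38, adjusted p = 0.0315) or without the batch 3 cow (adjusted p = 0.0386). With any other cow left out its adjusted p was up to 0.165. SOCS1 in intercaruncular tissue was -0.84, -0.80, -0.75, -0.25 and 0.24 with small and -0.59 to 0.78 (median -0.04) with large embryos. That difference was 0.48 with an interval of -0.08 to 1.05 (adjusted p = 0.311). JAK2 was higher than the small-embryo mean in 7 of 7 cows with large embryos (0.16, adjusted p = 0.249), and in caruncular tissue it differed by 0.05 and JAK1 by -0.12. For the other members tested the caruncular and intercaruncular differences of large minus small embryos were -0.06 and 0.19 for IFNAR1, -0.09 and -0.10 for IFNAR2, 0.02 and -0.16 for TYK2 and -0.16 and -0.23 for STAT3 (limma, adjusted p at least 0.386). The further probe of TYK2 gave -0.12 (limma, adjusted p = 0.858) and -0.27 (SE 0.07, adjusted p = 0.0685). In intercaruncular tissue 5 of 7 cows with large embryos lay below every cow with a small one by that probe. It was called there in 2 of 12 fits with a cow left out. STAT2, given as ratios of a dim probe, was 0.33 to 2.53 (median 1.75) with large and -0.97 to 1.60 (median 0.27) with small embryos in caruncular tissue. There 4 of 7 cows with large embryos lay above every cow with a small one, and without the filter the fitted difference was 0.88 (limma, adjusted p = 0.824). In intercaruncular tissue the STAT2 ratios were -1.71 to 2.05 (median -0.82) and -1.04 to -0.42 (median -0.54). The SOCS3 ratios of the size groups overlapped in both tissues, with fitted differences of -0.01 and -0.10 without the filter (adjusted p = 1 and 0.758).

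For the fertility label, 0 of the 7 members were called in either tissue, against 0% of all probes in caruncular tissue (0 by limma and by the methods' t-test, 2026 at an unadjusted p under 0.05) and 0.0476% in intercaruncular tissue (7 by limma, 0 by the methods' t-test). In caruncular tissue JAK2 was 0.15 to 0.83 with a median of 0.55 in the 6 fertile cows and -0.21 to 0.45 with a median of 0.07 in the 6 sub-fertile cows. The groups overlapped, with 6 of 6 fertile cows above the sub-fertile mean, and the difference was 0.39 with a 95% confidence interval of 0.09 to 0.70 (limma, adjusted p = 0.296). SOCS1 was -0.13 to 2.67 (median 0.79) in fertile and -0.67 to 0.85 (median 0.11) in sub-fertile cows, a difference of 0.94 with an interval of 0.03 to 1.84 (adjusted p = 0.351). JAK1 lay the other way at -0.28 with an interval of -0.51 to -0.04 (adjusted p = 0.316). These 3 intervals leave out 0 before adjustment, and none of the 3 passed after it. In intercaruncular tissue SOCS1 differed by 0.51 (adjusted p = 0.397) and IFNAR1 by -0.49 (adjusted p = 0.465). IFNAR1 there includes the batch 3 cow among the sub-fertile cows, at 1.41, and without that cow its difference was -0.20 (adjusted p = 0.556). In caruncular tissue IFNAR1 differed by -0.27, and in intercaruncular tissue JAK1 and JAK2 differed by -0.13 and 0.07. The caruncular and intercaruncular differences of fertile minus sub-fertile cows were 0.16 and 0.09 for IFNAR2, -0.01 and -0.03 for TYK2 and 0.05 and 0.05 for STAT3 (limma, adjusted p at least 0.583). STAT2, given as ratios of a dim probe, was 0.27 to 2.53 (median 1.46) in fertile and -0.97 to 1.84 (median 0.58) in sub-fertile cows in caruncular tissue. Without the filter its fitted difference was 0.67 there and -0.54 in intercaruncular tissue (limma, adjusted p = 0.645 and 0.666), and those of SOCS3 were 0.13 and -0.03 (adjusted p = 0.81 and 0.952).

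**Figure D4:**
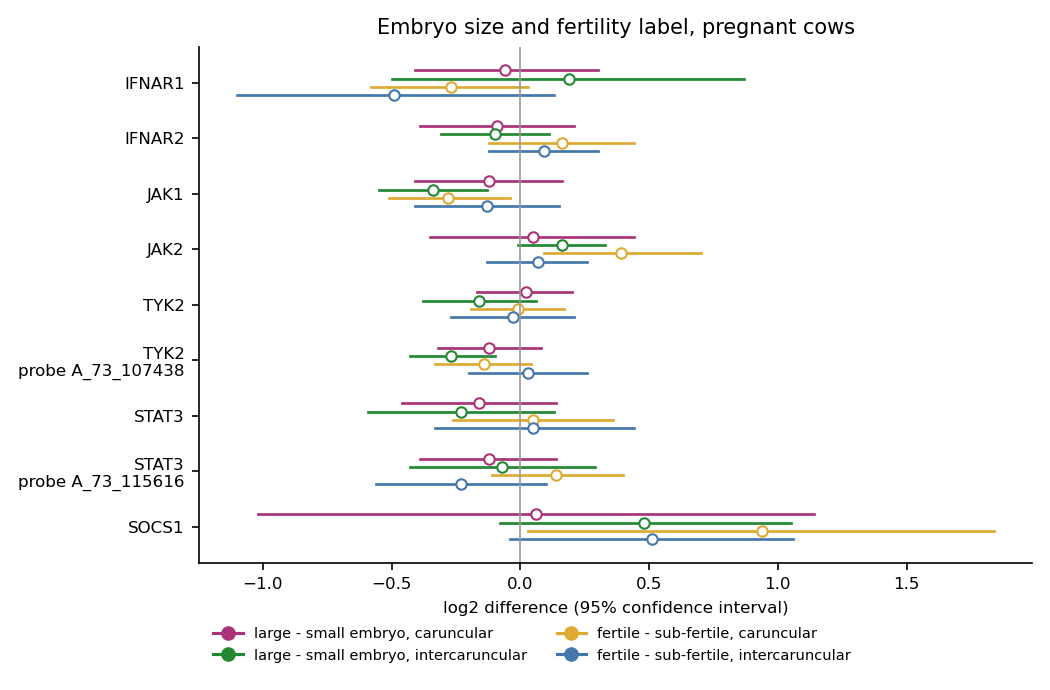
Log2 difference (horizontal axis) with its 95% confidence interval for large minus small embryos and for fertile minus sub-fertile cows in each tissue, over the 12 pregnant cows, for the probes tested. All points are open because no difference passed the test, and the widest intervals are those of SOCS1 in caruncular tissue.

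Within the pregnant cows the members were also set against each other in each tissue, 42 relations in all with 12 cows each. JAK2 and SOCS1 in caruncular tissue had a Pearson correlation of 0.84 and a Spearman correlation of 0.85 (permutation test, p = 0.00032 and 0.00087, adjusted p = 0.0134 and 0.0365). Pearson's value was 0.79 without the 2 cows farthest from the JAK2 median and 0.83 without the batch 3 cow. This was the only relation of the 42 that passed after adjustment. In intercaruncular tissue the same genes had 0.68 and 0.62 (permutation test, adjusted p = 0.119 and 0.252). Next in size by Pearson's value were TYK2 with STAT3 in caruncular tissue and JAK1 with SOCS1 in intercaruncular tissue (-0.72 each, adjusted permutation p = 0.113 each), and then IFNAR2 with SOCS1 (0.70) and IFNAR1 with SOCS1 (-0.68) in caruncular tissue, with adjusted permutation p values of 0.119 and 0.113. The values of a relation come from the same arrays, and the part of the arrays in a correlation was not tested.

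**Figure D5:**
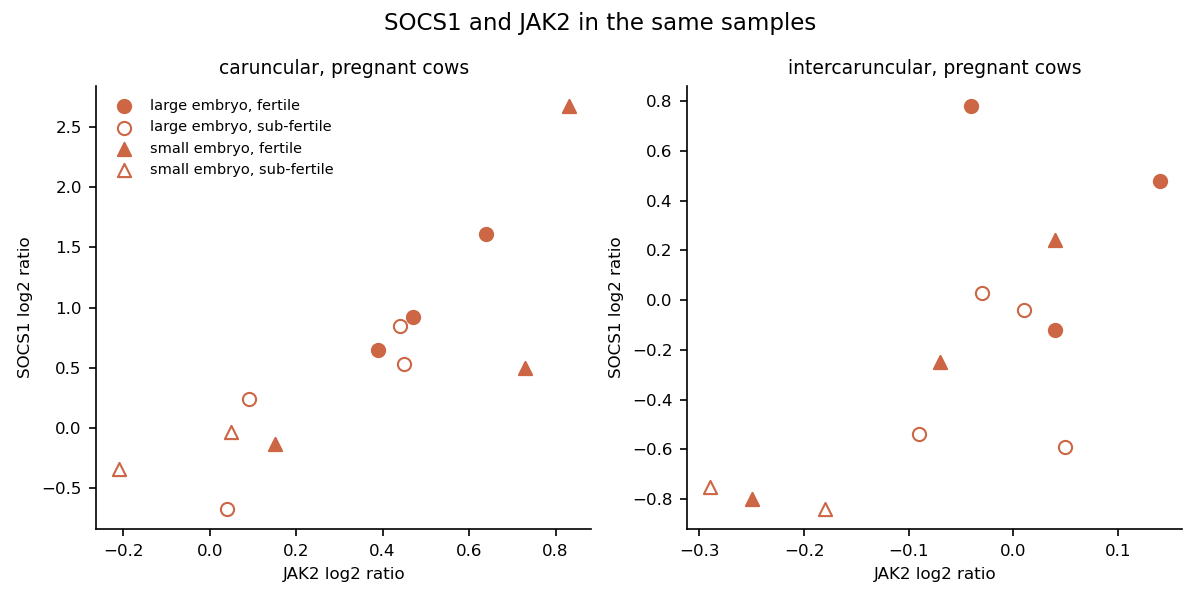
SOCS1 against JAK2 log2 ratio in the 12 pregnant cows, caruncular on the left and intercaruncular on the right; circles are large and triangles small embryos, filled symbols fertile and open symbols sub-fertile cows. In caruncular tissue the points rise together (Pearson 0.84). SOCS1 was lowest in the batch 3 cow (JAK2 at 0.04, SOCS1 at -0.67). JAK2 was lowest in a sub-fertile cow with a small embryo (JAK2 at -0.21, SOCS1 at -0.34). Both genes were highest in a fertile cow with a small embryo (JAK2 at 0.83, SOCS1 at 2.67).

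For each member tested, the 3 named genes with the most similar pattern were taken by Pearson correlation over the 44 samples centred within the 4 groups of tissue and state, among 11246 probes of named genes. The points share arrays and cows, so these are descriptions. For SOCS1 they were POLD3 (0.85), CXCL10 (0.83) and SESN2 (0.82), and for JAK2 RNF139 (0.85), DUSP11 (0.85) and XRN2 (0.83). For IFNAR1 they were SLC2A3 (0.90), ADAM17 (0.89) and RTF1 (0.89), which dropped to 0.69, 0.66 and 0.67 without the batch 3 cows. For STAT3 they were NOC4L (0.80), EZR (0.79) and CEBPD (0.78), which dropped to 0.66, 0.63 and 0.66. For JAK1 they were UTP6 (0.82), TBL1XR1 (0.78) and SEPT9 (0.77), for TYK2 ZBTB3 (0.77), GTF2H5 (0.77) and RBMXL2 (0.76), and for IFNAR2 RBM20 (0.72), ETS2 (0.69) and VCAM1 (0.69). Without those cows the correlations given for SOCS1, JAK1, JAK2, TYK2 and IFNAR2 were 0.68 or more.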

How the data were processed

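RNA of 44 endometrial samples was hybridised on 48 Agilent arrays with 60-base probes, the sample in Cy5 and a pool of all samples in Cy3. Per the file headers the authors used Feature Extraction 9.5.3.1 to find spots, remove background, mark outlying spots and apply a LOWESS dye normalization in each array (the paper names another version). The deposited log10 ratio is dye-normalized Cy5 over Cy3 signal per spot, and the deposited signals are linear intensities. The authors' deposited matrix holds log2 ratios of the same arrays and served as an alternative, with its own centring not stated (column medians -0.028 to 0.059). Its columns differed from the scanner ratios with an SD of up to 0.0944.

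Ratios were taken to log2, averaged over spots without outlier flags, centred on the median of each array and averaged over repeat arrays. The filter kept 14717 of 21475 probes, those well above background in Cy5 with a background-subtracted signal of 80 units or more in 22 or more samples. The methods state the 80 units as raw intensity. Each of 9 comparisons was fitted with limma 3.58.1 (lmFit, eBayes; R 4.3.3) on all tested probes with Benjamini-Hochberg adjustment, without further covariates. The number of cows limits the precision. A gene with several probes that carry its symbol is represented by the brightest of these. The further probe of TYK2, without the symbol, was brighter than the representing one. Pearson and Spearman correlations carry permutation p values (scipy 1.17.1, 100000 permutations). Tables and figures used Python 3.11.15, pandas 2.3.3, numpy 2.4.6, matplotlib 3.10.9 and the R package data.table (version 1.17.8). Scripts were tested on simulated data.

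Both tissues of a cow carry its number, so the numbers pair the samples by animal. Deviations from the group means correlated between the tissues of a cow over probes (0.11 to 0.87, median 0.61, 22 of 22 cows over 0.1).

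The rule names the 9 members in each comparison. Other pathway genes are named when among the 3 with the lowest adjusted p of those called in their list in a pregnancy comparison, and look-alike genes when among the 3 highest correlations. One gene that this rule gives is not reported here. Members and lists were chosen with earlier results of these data known. Symbols are those of the array, with older names matched through a RefSeq table. No coordinates are given, and motifs in promoters were not analysed here.

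Alternatives were the deposited matrix, normexp (offset 50) and loess, uncentred ratios, no filter or a stricter one (33 samples, 14093 probes), only the first or only the repeat array, the methods' t-test, slide as a fixed or random block, scan date as a fixed block, cow as a fixed or random block, all samples in 1 fit, the other label as a covariate, the other probe of STAT3 and each cow left out. A filter on raw signal (15683 probes), the cow as a block without filter, the further probe of TYK2 and the left-out cows of the pregnancy and tissue comparisons were added after the data were seen.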

Additional observations from a re-analysis of the deposited data

Results flagged for a closer look

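Among 90 groups of member values with 4 to 10 cows, 7 held a value set apart from the rest by Dixon's gap test at the 95% level, which chance gives in about 1 of 20 groups. Of the 7, 5 came from samples scanned in batch 3. IFNAR1 in cyclic caruncular tissue was -1.73 in the batch 3 cow, and STAT3 in the same sample was -1.17. IFNAR1 in intercaruncular tissue was 1.41 in the batch 3 pregnant cow, which stood apart both among the cows with large embryos and among the sub-fertile cows. STAT2 in intercaruncular tissue was 2.05 in that cow among the sub-fertile cows. IFNAR2 in cyclic caruncular tissue was 0.40 in 1 cow scanned in batch 2, and SOCS1 in caruncular tissue was 2.67 in 1 cow among those with small embryos. For SOCS1 the difference between large and small embryos in caruncular tissue, 0.06 with all cows, was 0.59 at its highest with 1 cow left out.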

How the results depend on the processing

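Over the alternatives that keep all cows, 872 values of the members were computed for 63 pairs of member and comparison, of which 831 kept their direction and side of the threshold, 19 lost the call, 13 gained one and 9 turned sign. With cows left out, 666 kept theirs and 6 gained a call. The causes were not tested. In the pregnancy comparisons, 2 members were called per tissue. With slide as random block 1 was called in each (SOCS1 in caruncular, IFNAR2 in intercaruncular tissue), at the methods' threshold with its 1.5-fold minimum 1 in each (SOCS1), and with slide as fixed block 0 in each, where 0.394% and 0.904% of all probes were called. That last fit compares pregnant with cyclic cows on 1 slide of each tissue, which held 3 pregnant cows and 1 cyclic cow. With cows left out the count was 2 to 3 in each tissue. Of the interaction 1 member (IFNAR2) was called with a random replicate block for the cow, against 0. Between tissues in cyclic cows 1 was called, and 4 with the cow as a fixed or random replicate block, also without filter (54.0% and 54.5% of all probes with the filter), 3 without the batch 3 cow (IFNAR1, IFNAR2, JAK2) and 0 with slide or scan date as fixed block or slide as random block. In pregnant cows 5 were called by their representing probes, 1 (JAK2) with slide as random block, where the other probe of STAT3 passed too, and 0 with slide or scan date as fixed block, which rest on the batch 3 cow alone. With slide as fixed block 0.0204% of all probes were called between tissues in cyclic and 0% in pregnant cows. STAT3 lost its call in pregnant cows without filter (adjusted p = 0.0545) and by the methods' t-test (adjusted p = 0.0514). There IFNAR1 was -0.78, STAT3 -0.03 and SOCS1 -0.13 under both fixed blocks. The cow as a block changed no other call of a count. For embryo size in intercaruncular tissue 1 member (JAK1) was called with slide as random block, scan date as fixed block, the fertility covariate or the batch 3 cow left out, against 0. With slide as random block 5.97% of all probes were called there, against 3.70%. The further probe of TYK2 turned its pregnancy difference to -0.38 and -0.30 and its tissue difference in pregnant cows to -0.06. STAT2 was below background on most arrays and SOCS3 was under the signal minimum, so their sizes are limited by signal.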
